A study of Drosophila melanogaster with 3 samples.

Results

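The genes described are protein-coding genes of Drosophila melanogaster, taken by name as the set for proteins of the cytoplasmic ribosome. They were chosen by symbol from the Ensembl annotation of the dm6 assembly, as RpL or RpS followed by a digit or by P, together with sta, and without the S6 kinases. This gave 93 of 13945 protein-coding genes. The rule uses names only, and it was set with earlier results of these data known. By name, 54 were placed with the large subunit (RpL) and 39 with the small subunit (RpS and sta). RpLP0-like, RpL24-like and RpL7-like are among the 54, though they encode relatives of factors that act in making ribosomes. The names carry a suffix in 21 cases, a or b in 16 and -like in 5, and the other 72 carry none.

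The data are chromatin immunoprecipitation with sequencing (ChIP-seq) peak lists for lilliputian (lilli). The chromatin came from whole embryos aged 0 to 24 h, males and females pooled, of the transgenic strain lilli-GFP, which stably expresses lilli with eGFP at its C terminus, and the precipitating antibody was raised against GFP. The 3 biological replicates form a single group, so no condition was compared, and each gave a list of 30000 peaks. The authors also deposited a pooled list of 30000 peaks and an optimal list of 6970 peaks, which are the 6970 pooled peaks with the highest signal. The depth of the libraries is unknown, since the lists hold no read counts. No list from flies without the fusion protein was used here, and in whole embryos a strong site in few cells and a weak site in many cells cannot be told apart.

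Each ribosome holds a single copy of most of its proteins, and cells make them in equal amounts, so their genes are transcribed at high and matched rates in nearly every cell. Many ribosomal protein genes of the fly start transcription at a polypyrimidine initiator, also named TCT, in place of the usual initiator, and the TBP-related factor TRF2, DREF and M1BP are known to act at such promoters. lilli belongs to the AF4/FMR2 family and is a scaffold of the super elongation complex, which carries the kinase P-TEFb and helps RNA polymerase II leave the paused state near the start of genes. Several of the fly's duplicated ribosomal protein genes are known for expression in germ cells or testis.

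The sequences of 3 of the strongest promoters and of 3 pairs of duplicated genes are shown, since the peaks of these genes carry the comparisons that follow. Each is read from the RefSeq copy of dm6, 5' to 3' on the strand of the gene, and ends 20 bases into the transcript of the most upstream annotated transcription start site (TSS). Capitals mark the promoter words searched for, on either strand, wherever they lie in the stretch, and TCTTT on the strand of the gene where its C is within 5 bp of this TSS. The promoter of RpL34b is on the minus strand at chr3R:9401207-9401386, that of RpS20 on the plus strand at chr3R:20822021-20822200, and that of RpL7, where the stretch is cut at the neighbouring exon, on the plus strand at chr2L:10200975-10201023.
RpL34b: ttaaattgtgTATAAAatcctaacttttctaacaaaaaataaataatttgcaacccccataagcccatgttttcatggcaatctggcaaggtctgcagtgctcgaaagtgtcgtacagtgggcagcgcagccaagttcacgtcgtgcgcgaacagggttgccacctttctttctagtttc
RpS20: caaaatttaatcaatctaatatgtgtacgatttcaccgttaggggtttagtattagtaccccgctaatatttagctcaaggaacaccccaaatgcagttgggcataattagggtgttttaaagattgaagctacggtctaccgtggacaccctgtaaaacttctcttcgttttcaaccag
RpL7: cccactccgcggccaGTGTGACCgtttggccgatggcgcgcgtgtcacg
The only capitals among these 3 are TATAAA, the word of the TATA box, far upstream in RpL34b, and GGTCACAC, the Ohler 1 word bound by M1BP, which RpL7 has in reverse complement just before its TSS. Further TSSs are annotated for RpL34b and RpL7, and both have TCTTT with its C within 5 bp of one of those.

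Of the 3 pairs, RpS10a lies on the plus strand at chr3R:27652600-27652779, RpS10b on the plus strand at chrX:19597871-19598050, RpS14a on the plus strand at chrX:7933582-7933761 and RpS14b on the plus strand at chrX:7934738-7934917. RpS19a lies on the plus strand at chrX:16637734-16637913 and RpS19b on the minus strand at chr3R:23933511-23933690. The pair of RpS19a and RpS19b was added after its values were seen.
RpS10a: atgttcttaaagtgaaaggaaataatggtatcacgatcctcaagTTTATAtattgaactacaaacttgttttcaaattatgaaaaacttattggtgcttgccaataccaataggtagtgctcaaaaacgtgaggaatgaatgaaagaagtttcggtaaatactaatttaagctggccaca
RpS10b: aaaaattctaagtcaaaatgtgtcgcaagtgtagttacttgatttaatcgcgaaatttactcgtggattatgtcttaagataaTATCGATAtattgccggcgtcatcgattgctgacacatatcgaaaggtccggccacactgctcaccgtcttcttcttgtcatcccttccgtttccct
RpS14a: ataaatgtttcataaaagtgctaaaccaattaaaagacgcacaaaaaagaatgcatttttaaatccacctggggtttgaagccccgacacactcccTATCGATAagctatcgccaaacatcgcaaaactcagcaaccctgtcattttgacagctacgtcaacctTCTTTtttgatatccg
RpS14b: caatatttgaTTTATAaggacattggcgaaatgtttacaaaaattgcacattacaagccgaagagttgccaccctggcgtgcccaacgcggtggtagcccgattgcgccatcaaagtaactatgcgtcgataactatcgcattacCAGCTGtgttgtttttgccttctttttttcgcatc
RpS19a: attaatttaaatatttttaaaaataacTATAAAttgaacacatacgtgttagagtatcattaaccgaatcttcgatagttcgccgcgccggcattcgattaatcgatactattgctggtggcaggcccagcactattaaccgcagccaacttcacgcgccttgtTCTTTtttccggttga
RpS19b: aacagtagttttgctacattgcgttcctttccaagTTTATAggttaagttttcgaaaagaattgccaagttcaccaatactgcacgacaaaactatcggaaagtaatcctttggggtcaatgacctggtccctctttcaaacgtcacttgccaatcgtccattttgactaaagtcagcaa
RpS10b and RpS14a hold TATCGATA, the DNA replication-related element bound by DREF. RpS14a and RpS19a hold TCTTT at this TSS. RpS19b holds only the TATA word, far upstream.

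Most ribosomal protein genes carried a lilli-eGFP peak at a promoter. A gene was taken as bound where at least 1 of its TSSs had an optimal summit within 500 bp. This held for 70 of the 93 genes (75.3%), beside 31.3% of all protein-coding genes, and the 95% Wilson interval of the share, which covers counting error over genes only, was 65.6% to 82.9%. In single replicates, a gene was taken as bound where the summit was among that replicate's 6970 strongest peaks. By that rule 71, 72 and 66 ribosomal protein genes were bound in replicates 1, 2 and 3, or 74.9% ± 3.46 (SD, n = 3), beside 30.5%, 31.7% and 30.1% of all protein-coding genes. All 3 replicates had 59 of the genes bound, beside 24.6% of all genes, while 10 were bound in 2 replicates, 12 in 1 and 12 in none. In the whole pooled list, which includes weak peaks and background, 88 of 93 had a promoter summit, beside 55% of all genes. In the whole replicate lists the share was 94.3% on average, beside 55.5%, 56.2% and 54.5% of all genes. The same 88 had one in at least 1 of the 5 lists, beside 66.4% of all genes. No test was run on these shares, because the genes were chosen with results of these data known.

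The peaks of these genes were of upper-middle rank and were not the strongest in the genome. Rank is by the signal value in the authors' lists, which orders peaks only within 1 list, with rank 1 the strongest. The median optimal rank of the promoter peaks of the 70 bound genes was 1977.5, beside 2660 for the 4301 other bound genes. Where no other gene's TSS lay within 500 bp of the summit (30 of the 70), the median was 2891, weaker than that of the other bound genes. The other bound genes were not restricted in the same way, so the part of shared promoters in the ranks was not tested. In replicates 1, 2 and 3 the medians were 2046, 2013 and 2060, beside 2643, 2667 and 2570. The 3485 strongest optimal peaks included promoter peaks of 51 ribosomal protein genes, beside 19.2% of all genes, and the 697 strongest included those of 11, beside 5.01% of all genes. The order of the genes by rank was similar in the replicates, with Spearman's rho of 0.887 for replicates 1 and 2 (87 genes), 0.836 for 1 and 3 (87 genes) and 0.912 for 2 and 3 (88 genes). These correlations are across genes, which share libraries and are not independent.

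**Figure D1:**
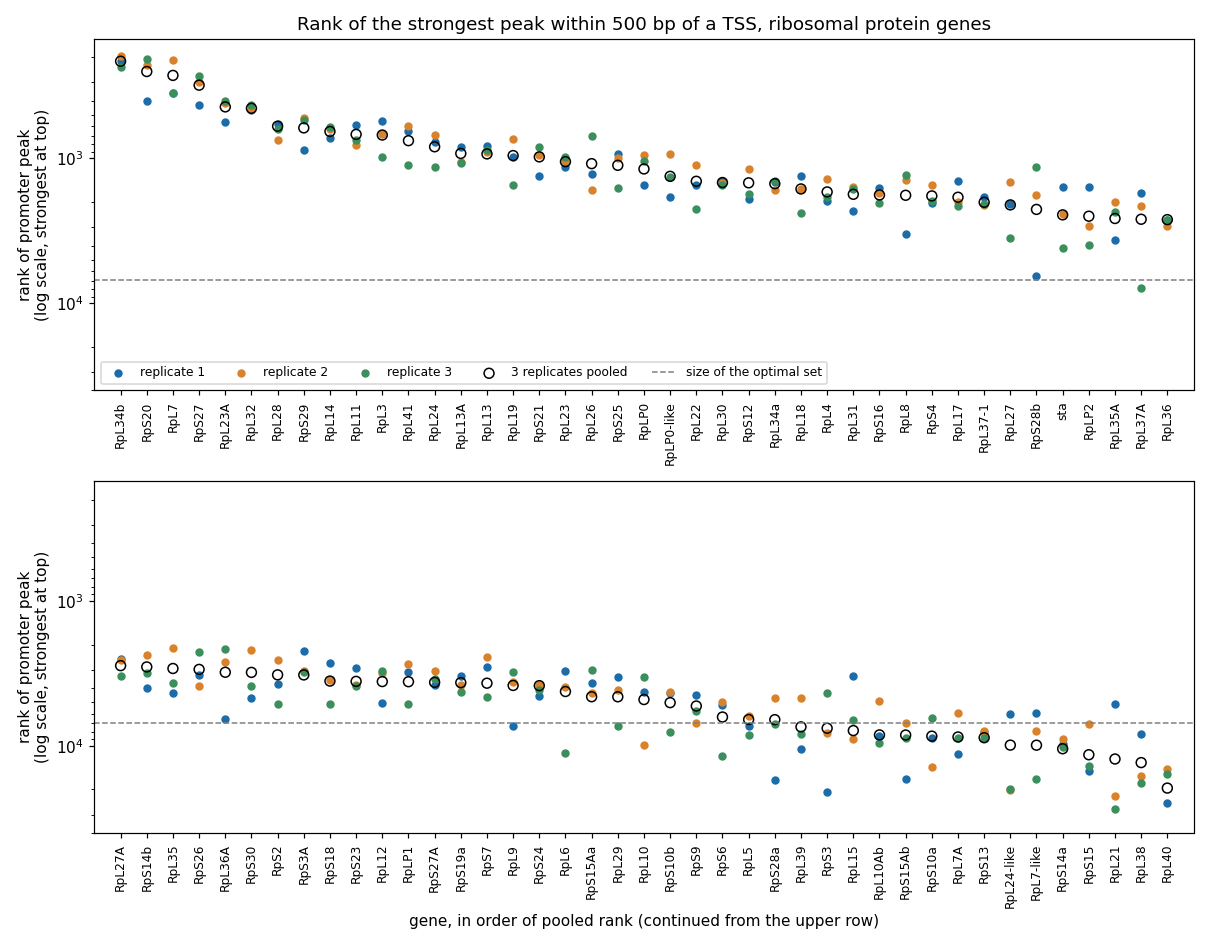
Rank (log scale, rank 1 strongest) of the strongest promoter peak of 82 ribosomal protein genes with a peak in the pooled list, in order of pooled rank over 2 rows. Filled points are the 3 replicates, open circles the pooled list, and the dashed line the size of the optimal set, 6970; points of a gene spread more widely toward the weak end.

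The strongest promoter peak belonged to RpL34b, which encodes a large subunit protein. It lay at chr3R:9401140-9401584, over the TSS, with the summit 103 bp upstream, and ranked 212, 197 and 234 in replicates 1, 2 and 3 and 214 in the optimal list, with a signal of 976.0 in the authors' units. The peak of RpS20, a small subunit gene with small nucleolar RNA genes inside it, ranked 403, 228 and 205, with an optimal rank of 252 and its summit 142 bp upstream at chr3R:20821810-20822226. RpL7, for a large subunit protein, ranked 356, 210 and 352, with an optimal rank of 268 and its summit 26 bp downstream of a TSS at chr2L:10200869-10201178. These 3 genes were within the first 403 peaks of every replicate. RpS27, for a small subunit protein with a zinc finger, followed at ranks 432, 299 and 270, with its summit 26 bp upstream at chr3R:25247364-25247677. The next 4 were RpL23A at optimal rank 442, RpL32, often used as a reference gene for RNA levels, at 452, RpL28 at 601 and RpS29 at 617. A TSS of another gene also lay within 500 bp of the summits of the strongest 4, CG8132 at RpL34b, CG17271 at RpS20, Ripalpha at RpL7 and Nup37 at RpS27.

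Binding ranked higher at genes of the large subunit than at those of the small subunit. Of the 54 large subunit genes 42 were bound (77.8%), in replicates 44, 44 and 39, and of the 39 small subunit genes 28 were bound (71.8%), in replicates 27, 28 and 27. The per-replicate shares, 78.4% ± 5.35 for the large and 70.1% ± 1.48 for the small subunit (SD, n = 3), ranged over replicates from 72.2% to 81.5% and from 69.2% to 71.8%, which nearly touch. The median ranks did not overlap: 1560.5, 1533.5 and 1526 for bound large subunit genes in replicates 1, 2 and 3, and 3018, 2507 and 3139 for bound small subunit genes. Large subunit genes were 8 of the 11 among the 697 strongest peaks, and 35 of the 51 among the 3485 strongest. Among them were RpL11, whose protein binds the 5S ribosomal RNA together with that of RpL5, at optimal rank 684, RpL3, for a protein near the peptidyl transferase centre, at 691, and RpL41, for a very short protein, at 756. RpL5 itself was at 6583, near the end of the list, and was bound in replicate 2 only, with ranks 7317, 6190 and 8432.

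The proteins of the ribosomal stalk recruit translation factors to the ribosome. All 3 stalk genes were bound in all 3 replicates. RpLP0, for the base of the stalk, ranked 1535, 945 and 1038 in replicates 1, 2 and 3, RpLP1 ranked 3076, 2724 and 5146, and RpLP2 ranked 1586, 2947 and 3961. The small subunit gene sta, which encodes the fly form of the laminin receptor-like protein RpSA, ranked 1580, 2426 and 4188. The 2 genes that encode ribosomal proteins fused to ubiquitin differed. RpS27A ranked 3802, 3039 and 3472 and was bound in every replicate, whereas RpL40 ranked 24753, 14500 and 15655, far below the 6970 strongest of each, and was not bound in any.

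Genes without a suffix were bound more often than genes with a suffix. Of the 72 without a suffix, 60 were bound in the optimal list (83.3%), and 60, 60 and 57 in replicates 1, 2 and 3, or 81.9% ± 2.41 (SD, n = 3). Of the 21 with a suffix, 10 were bound (47.6%), and 11, 12 and 9 in the replicates, or 50.8% ± 7.27 (SD, n = 3). Without replicate 2 the optimal peaks found in both other replicates left 6 suffixed genes and 52 without a suffix. The shares of the 2 classes did not overlap over replicates, and those with a suffix still lay above the 30.1% to 31.7% of all protein-coding genes. Among the suffixed genes, 9 of 16 with a or b were bound (8, 11 and 8 in replicates) and 1 of 5 with -like (3, 1 and 1). RpL37-1 and RpL37-2 are also a duplicated pair but carry no such suffix. With both moved to the class of suffixed genes, 59 of the others and 11 of that class were bound, an alternative added after seeing the data.

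**Figure D2:**
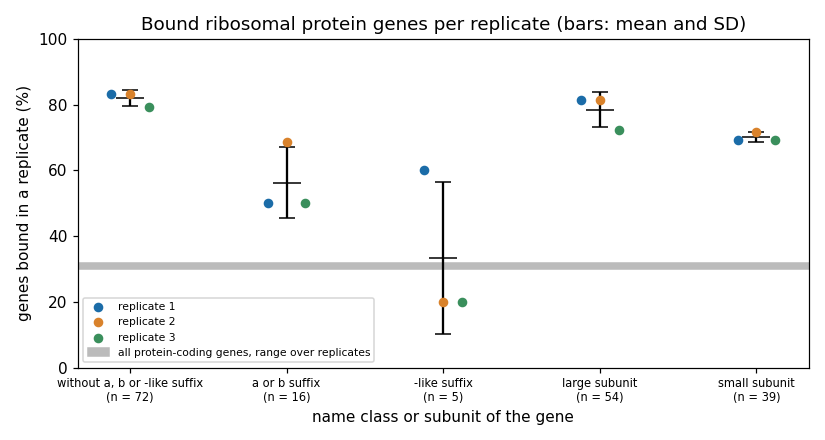
Percent of ribosomal protein genes bound in each replicate, by name class and by subunit; points are the 3 replicates, horizontal bars the mean, whiskers the SD, and the grey band the range of the share of all protein-coding genes, 30.1% to 31.7%. Genes without a suffix lie between 79.2% and 83.3%, and those with a or b between 50% and 68.8%.

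The 5 genes with no promoter summit in any of the 5 lists were all 1 copy of a named duplicate: RpL10Aa, RpL22-like, RpL37-2, RpS19b and RpS28-like. RpL22-like is known for expression in testis and RpS19b for expression in germ cells. Their sequence does not repeat elsewhere: every 31-base stretch within 250 bp of their TSSs occurs once in the genome, which also holds for 88 of the 93 genes. Their partners did have promoter summits. RpL22 ranked 1520, 1120 and 2223 in replicates 1, 2 and 3. RpL37-1 ranked 1857, 2084 and 2071, and RpS19a, whose promoter has the TCTTT printed above, ranked 3273, 3775 and 4284. RpL10Ab ranked 8543, 4897 and 9609, was bound in replicate 2 only and had no optimal peak.

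In 3 further a and b pairs described here, 1 gene was bound in the optimal list and the other was not. RpS15Aa ranked 3679, 4323 and 2979 in replicates 1, 2 and 3, and RpS15Ab 16993, 6934 and 8873. Around the RpS15Ab TSS 88.7% of the 31-base stretches were unique in the genome. RpS14a and RpS14b lie side by side on the X chromosome and share sequence. Around the RpS14b TSSs 80.3% of the 31-base stretches were unique, and around the TSSs of RpS14a and RpS15Aa 100%. Reads may thus be placed with error in a part of the RpS14b and RpS15Ab windows, and how far this moved their ranks was not tested. RpS14a ranked 9694, 8924 and 10190 and RpS14b 3968, 2378 and 3139. In both pairs the ranks of the 2 copies did not overlap over replicates. RpS10a ranked 8762, 13957 and 6388 and RpS10b 4335, 4230 and 8015, so replicate 3 had the order of the other replicates turned around. Both RpS14a and RpS14b have TCTTT with its C within 5 bp of an annotated TSS, and TATCGATA is at RpS14a, the weaker copy.

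RpL34a and RpL34b were both bound, as were RpS28a and RpS28b. RpL34b, the strongest of all, ranked 212, 197 and 234 beside 1467, 1652 and 1430 for RpL34a, whose summit was nearer to a TSS of Trmt61 than to its own. RpS28b ranked 6488, 1803 and 1147 and RpS28a 17189, 4647 and 7026, with RpS28a the last of the bound genes at optimal rank 6598. In each replicate RpS28b was above RpS28a, although the ranges overlapped between replicates.

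Among the -like genes, RpLP0-like, RpL24-like and RpL7-like encode relatives of factors that act in making ribosomes, as known from their yeast and human counterparts. RpL7-like ranked 5975, 7856 and 16979 in replicates 1, 2 and 3, beside 356, 210 and 352 for RpL7. RpL24-like ranked 6057, 20311 and 19863, beside 767, 696 and 1142 for RpL24. Both were bound in replicate 1 only, and in every replicate they were far below the gene they are named after. RpLP0-like ranked 1842, 931 and 1354, which overlapped the ranks of RpLP0, but its summit lay 27 bp from a TSS of 14-3-3zeta and 60 bp from its own, so the peak cannot be given to either gene.

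**Figure D3:**
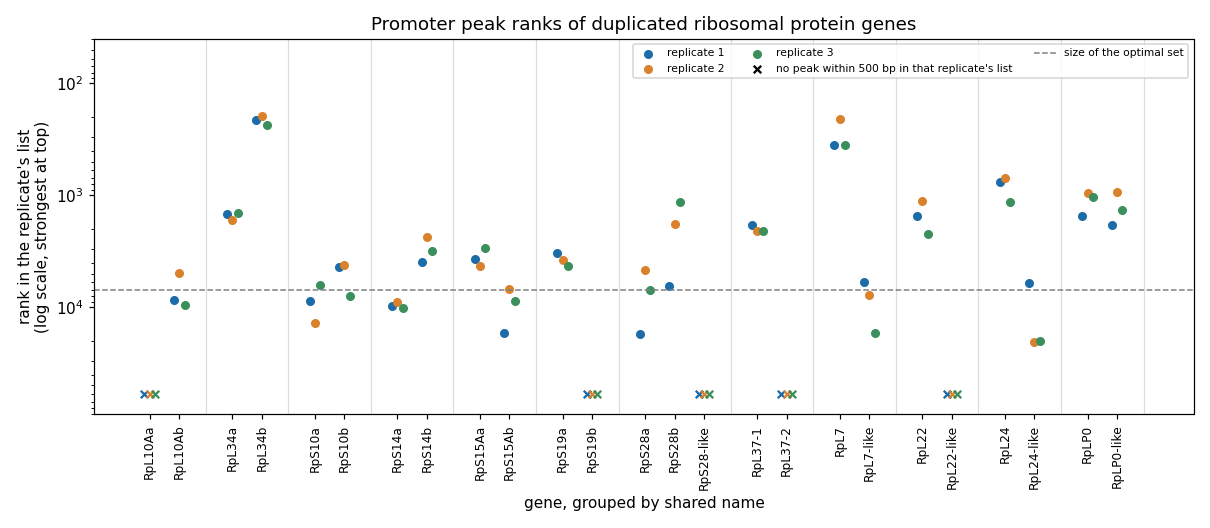
Rank (log scale, rank 1 at the top) of the strongest promoter peak in each replicate for 12 sets of ribosomal protein genes grouped by shared name. Crosses near the bottom mark replicates with no summit within 500 bp, and the dashed line marks rank 6970. RpL34a and RpL34b lie above rank 1652 or at it in every replicate, and the crosses mark RpL10Aa, RpS19b, RpS28-like, RpL37-2 and RpL22-like.

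Apart from the 5 genes with no promoter summit, the other 18 genes that were not bound had promoter summits in the pooled list, at ranks from 7400 downward, with RpL40 at 19570. Bound genes near the end of the optimal list were RpS9 at rank 5313, RpS6, for the target of S6 kinase, at 6328, RpL5 at 6583 and RpS28a at 6598. Near it on the outside were RpL39 at 7400, RpS3 at 7560, RpL15 at 7850 and RpL10Ab at 8408. RpS3, for a protein at the messenger RNA entry channel, ranked 20835, 8105 and 4320 in replicates 1, 2 and 3 and RpL15 ranked 3320, 8950 and 6598, so both were among the strongest peaks of at least 1 replicate. RpS13 ranked 7996, 7949 and 8869, below the limit in all 3 though close to it. Also not bound were RpS15Ab, RpS10a, RpL7A, RpL24-like, RpL7-like, RpS14a, RpS15, RpL21, RpL38 and RpL40. Of the bound genes, RpL37A, RpL9, RpL6, RpL29, RpL10, RpS10b, RpS9 and RpS6 were among those bound in 2 of the 3 replicates, and RpL5 and RpS28a in 1. RpL6 shows the spread, with ranks 3052, 3906 and 11225.

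Summits at ribosomal protein genes lay closer to the TSS than at other bound genes. For the summit nearest a TSS, the median position at the 70 genes was -24.5 bp, that is upstream, beside -98 bp for the 4301 other bound genes. In replicates 1, 2 and 3 the medians were -3, -25.5 and -25 bp, beside -95, -97 and -95 bp. Within 50 bp of the TSS lay 44 of 70 summits (62.9%), beside 23.3% for other bound genes, and in single replicates 59.8% ± 5.92, beside 23.0% ± 0.334 (SD, n = 3). Upstream of the TSS lay 62.9% of the summits, beside 83.5%. The replicate ranges did not overlap for the share within 50 bp or for the median. The values depend on which annotated TSS is used, and with only the most upstream TSS of each gene the medians were -0.5 and -96 bp, and 51.4% and 21.4% lay within 50 bp.

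**Figure D4:**
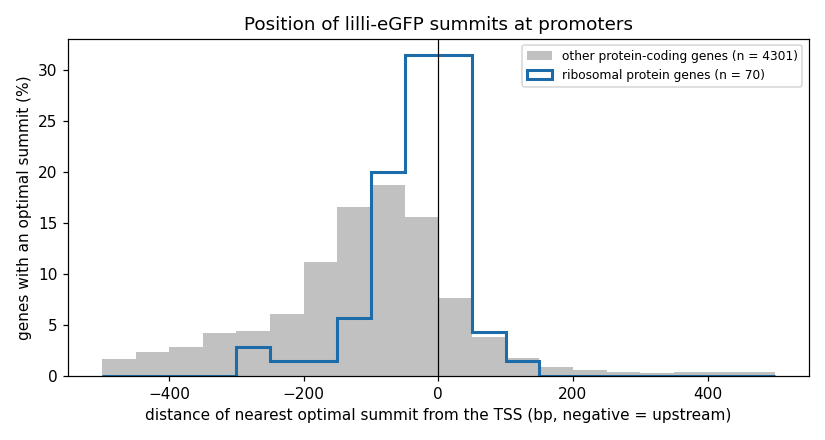
Distance in bp from the TSS to the nearest optimal summit (negative is upstream), in 50 bp bins as percent of genes, for the 70 bound ribosomal protein genes (blue outline) and the 4301 other bound protein-coding genes (grey). Ribosomal protein genes peak in the bins beside the TSS, and other genes peak between 50 and 100 bp upstream.

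Examples show the range of positions. The summits of RpS4 and RpL9 fell on a TSS, that of RpL31 lay 2 bp downstream, and those of RpS29 and RpL41 3 bp downstream. At the far ends were RpL18, with a summit 299 bp upstream, and RpL23, with one 266 bp upstream, both of which drop out when the window is narrowed to 250 bp. RpL10, for a protein added late in assembly, had its summit 144 bp downstream. At 8 genes 2 optimal summits lay in the window, as at RpL11, where the stronger was 140 bp upstream and the nearer 64 bp downstream.

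Many of these promoters are shared with a neighbour in the compact fly genome. The 70 genes had 70 distinct peaks, and at 63 of them the gene's own TSS was the nearest TSS to the summit. At the other 7 a TSS of another gene was nearer, among them Dref at RpL13 (68 bp from the summit), Neos at RpL18 (22 bp), Trmt61 at RpL34a (97 bp), 14-3-3zeta at RpLP0-like (27 bp), CG13690 at RpLP1 (143 bp) and CR33222 at RpS6 (13 bp). Dref encodes DREF, the factor that binds the DNA replication-related element. Another gene's TSS lay within 500 bp of the summit at 40 of the 70 genes, a protein-coding one at 32. At the 30 genes with no other TSS in reach the median position was -22 bp, and 66.7% lay within 50 bp. Other bound genes were not restricted in this way, so the part of shared promoters in the summit positions was not tested.

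The base composition at the summits moved with position. The median GC content of the 51 bp around the summit was 49.0% at ribosomal protein promoter peaks and 37.3% at the 3056 other promoter peaks. Within 50 bp of a TSS it was 51.0% at ribosomal protein peaks and 45.1% at other peaks, and farther away 39.2% and 33.3%. The SDs over peaks were 8.74, 10.2, 10.9 and 11.1 percentage points in that order. The part of base composition in the summit positions was not tested.

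The promoters differed from those of other genes in their sequence words. The polypyrimidine initiator was searched as TCTTT on the strand of the gene with its C within 5 bp of an annotated TSS, and 45 of 93 ribosomal protein genes had it (48.4%), beside 2.23% of all protein-coding genes. The 6 other words were searched on both strands within 100 bp of a TSS, and none of them contains another. TATCGATA, the DNA replication-related element, was at 29.0% of ribosomal protein genes and 8.49% of all genes, and CACGTG, the E-box bound by Myc and Max, at 24.7% and 3.69%. GGTCACAC, the Ohler 1 word, was at 14.0% and 7.56%. The other 3 were less frequent than among all genes: TATAAA of the TATA box at 22.6% and 34.1%, GAGAG of GAGA factor at 19.4% and 28.7%, and CAGCTG, the Ohler 5 word, at 10.8% and 17.4%. Ribosomal protein genes have 1.70 annotated TSSs each on average and all genes 1.41, which gives them more sequence to match. With only the most upstream TSS, the initiator was at 26.9% and 1.42%, the E-box at 15.1% and 2.88% and the DNA replication-related element at 29.0% and 7.84%.

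**Figure D5:**
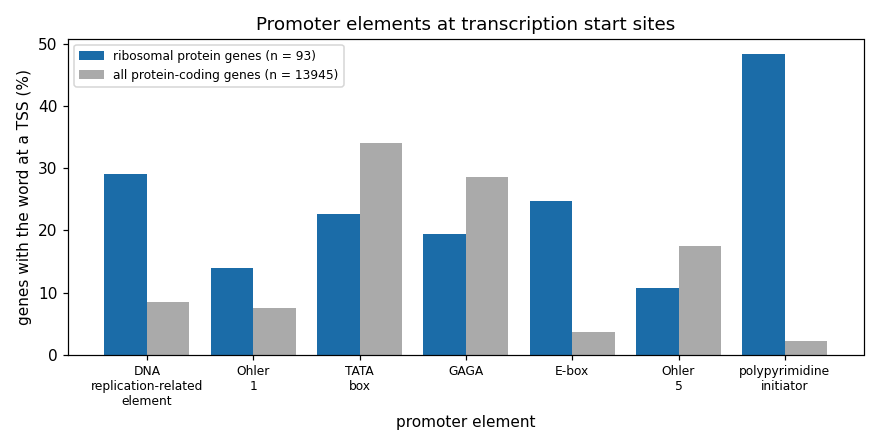
Percent of the 93 ribosomal protein genes (blue) and of all 13945 protein-coding genes (grey) with each promoter word at a TSS; the initiator is counted within 5 bp on the strand of the gene and the other words within 100 bp on either strand. The initiator shows the widest gap, 48.4% against 2.23%.

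Bound ribosomal protein genes were found with and without each of the words, and the differences were not tested. With the initiator 35 of 45 genes were bound, and without it 35 of 48. With TATCGATA 20 of 27 were bound, and without it 50 of 66. With the E-box 19 of 23 were bound, and without it 51 of 70. With TATAAA 18 of 21 were bound, and without it 52 of 72. The counts with and without GGTCACAC were 10 of 13 and 60 of 80. For GAGAG they were 15 of 18 and 55 of 75, and for CAGCTG 8 of 10 and 62 of 83. The bound genes with and without the initiator had median optimal ranks of 1800 and 2253, and in both sets 62.9% of summits lay within 50 bp of the TSS. With and without TATAAA the median ranks were 3408.5 and 1786, and for GGTCACAC 2716 and 1837.5, weaker with the word in both. They were 1901 and 2098 for TATCGATA, 1943 and 2097 for the E-box, 1943 and 2012 for GAGAG and 1804 and 2054.5 for CAGCTG. Of the 266 other protein-coding genes with the initiator, 105 were bound (39.5%), and 31.4% of their summits lay within 50 bp of the TSS. Other genes with TATCGATA were bound in 606 of 1157 cases (52.4%), and other genes with the E-box in 214 of 491 (43.6%). Within 100 bp of the summits themselves, TATCGATA was at 27.1% of the 70 ribosomal protein peaks and 10.5% of other promoter peaks, and CACGTG at 14.3% and 2.39%. A word is a match of letters, and none of these counts shows that a factor was present.

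Genes that host small nucleolar RNA (snoRNA) genes, whose products guide the modification of ribosomal RNA, were examined as a further class. Among the 29 ribosomal protein genes with a snoRNA gene inside, 25 were bound, and 25, 25 and 24 in replicates 1, 2 and 3. Among the 64 without, 45 were bound, and 46, 47 and 42 in the replicates. The shares, 85.1% ± 1.99 and 70.3% ± 4.13 (SD, n = 3), did not overlap over replicates. Beside them, 30.5%, 31.7% and 30.1% of all protein-coding genes were bound in replicates 1, 2 and 3. All 5 genes with no promoter summit in any list were among the 64, as were all genes named -like. Most genes with an a or b suffix were among the 64 too. The split by snoRNA thus overlaps the split by name, and their parts were not separated. By chromosome arm, bound genes were 13 of 15 on X, 14 of 19 on 2L, 14 of 21 on 2R, 11 of 14 on 3L and 17 of 23 on 3R, and RpS3A, the only ribosomal protein gene on chromosome 4, was bound in all 3 replicates. Over all arms together 31.3% of all protein-coding genes were bound in the optimal list. Their share on each arm is not given here, so the arms cannot be compared.

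Other genes of the translation apparatus were counted for comparison. Of 12 genes for elongation factors and associated proteins, 8 were bound (66.7%, beside 31.3% of all protein-coding genes), and 9, 7 and 8 in replicates 1, 2 and 3, beside 30.5%, 31.7% and 30.1% of all genes. The initiator word was at 4 of the 12, beside 2.23% of all genes. The bound genes included eEF1gamma at optimal rank 646, eEF1alpha1, which brings transfer RNA to the ribosome, at 1367, and eEF2, the translocation factor, at 1665, with its summit 2 bp upstream. Of 26 genes for ribosome biogenesis, 15 were bound (57.7%, beside the same 31.3%), and 17, 15 and 14 in the replicates, and 1 had the initiator word. In the optimal list the nucleostemin-family gene Ns2 at rank 166 and eIF6, for a factor that keeps the subunits apart, at 188 were above every ribosomal protein gene. This did not hold in every replicate. In replicates 1, 2 and 3 Ns2 ranked 165, 202 and 155 and eIF6 230, 233 and 137, beside 212, 197 and 234 for RpL34b. Fib, for the nucleolar methyltransferase fibrillarin, was at optimal rank 1701. Polr1D and brat were counted through a single peak at rank 1372. Both lists were small, and their shares were not tested against those of ribosomal protein genes.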

How the data were processed

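Chromatin of 3 biological replicates was analysed, with sonication to fragments of 200 to 800 bp per the labels. Per the file headers in the text files that accompany the lists, each replicate list came from that replicate's alignment against a control, the pooled list from all 3, and the optimal list by irreproducible discovery rate. The aligner and peak caller are not given in the sources at hand. The signal value of a peak is the authors' own in the deposited lists and was used only to order peaks within a list. The deposited -log10 q-values were at their maximum in 6088 of the 6970 optimal peaks and did not enter the ranking. Lists on the dm3 assembly were not used.

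Summits were placed 1-based on dm6 and set against TSSs of Ensembl release 115. Distances named for a gene are those of its strongest summit, and medians over genes use the nearest summit. Sequence was read from RefSeq's copy of the assembly. Genes were named by a fixed rule: suffixed genes and the genes they are named after, the 8 strongest, the stalk, sta and ubiquitin fusion genes, those not bound, those bound in 1 or 2 replicates, and 5 either side of the optimal limit. A few genes that this rule takes in are counted in all totals and not reported here by name. Other genes named as examples were picked with their values known. The members, lists and words were chosen with earlier results of these data known. No list was tested, so shares stand beside those of all protein-coding genes. On simulated summits every gene was recovered, with a rank at least as strong and an absolute distance at most as large as planted. The sign and the exact value of the distance were not checked in this way. Alternatives covered the window, peak position, TSS choice, number of peaks and leaving out each replicate. The software was pandas 2.3.3, numpy 2.4.6 and scipy 1.17.1 under Python 3.11.15, with matplotlib 3.10.9 for figures.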

Additional observations from a re-analysis of the deposited data

How the results depend on the processing

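The count of 70 bound ribosomal protein genes was 68 with a window of 250 bp and 73 with 1000 bp, 51 among the 3485 strongest optimal peaks and 88 in the whole pooled list, and 58 to 62 when a replicate was left out. Leaving out a replicate keeps optimal peaks found in both others, 4828 to 5124 peaks, so fewer peaks are counted. The mean share per replicate was 78.5% with 1000 bp, 55.9% with 3485 peaks each and 94.3% in whole lists. Suffixed genes bound were 6 among the 3485 strongest, 17 in the whole pooled list and 6 to 8 without a replicate, the lowest without replicate 2. The median rank was 2054.5 with 250 bp, 1943 with 1000 bp, 1477 among the 3485 strongest, 2826.5 in the whole pooled list and 1739.5 to 1795 without a replicate. The median position was -0.5 bp with the most upstream TSS and -39 bp among the 3485 strongest. With the most upstream TSS, an alternative added after seeing the data, the GAGA word was at 11 genes, the E-box at 14 and the initiator at 25. The initiator was at 57 genes with its C within 10 bp and at 30 with the word CTTTT. Ranks of single genes moved by less than their replicate SD in all 278 alternatives run on them, which covered window, peak middle and TSS choice. These alternatives do not rank peaks anew, so a gene that keeps its peak keeps its rank, and a gene that loses its peak is not counted. The rank of RpS28b moved from 2253 to 702 with 1000 bp, beside replicate ranks of 6488, 1803 and 1147. No paired analysis was possible because there is 1 group. Depth is unknown, so a gene with no promoter summit may be below what these lists hold and is not shown to lack lilli.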

Other observations

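Positions near the centromeric ends of the chromosome arms were looked at after the values were seen, and no relation to rank was tested. RpS3A, 65.2 kb from that end of chromosome 4, was bound in all 3 replicates, with ranks 2216, 3052 and 3091 in replicates 1, 2 and 3. The next closest ribosomal protein genes were RpL15 on 3L, 842 kb away, RpL5 on 2L, 977 kb away, and RpL21 on 2L, 1266 kb away. RpL15 had no optimal promoter peak but was bound in 2 replicates, with ranks 3320, 8950 and 6598. RpL5 was at optimal rank 6583 and bound in 1 replicate. RpL21 had no optimal promoter peak and ranked 5127, 22201 and 27265. RpL38, 4515 kb from the end of 2R, ranked 8279, 16231 and 17938 and was not bound. At like distances RpL30 on 2L, 4504 kb from the end, was at optimal rank 1470 and RpS10b on X, 3942 kb from the end, at 5037.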
